A study of Mus musculus with 15 samples.

Results

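Interferon-stimulated genes (ISGs) are the genes that a cell transcribes when an interferon binds its surface receptor. The 36 genes described here were taken as a list of symbols, were each matched to 1 gene of the GENCODE M21 mouse annotation among the 55536 genes with an Ensembl identifier in the count table, and all 36 passed the filter on low counts together with 24262 genes in all. They cover 2 transcription factors (Irf7 and Irf9), Isg15 and 3 genes of protein modification (Usp18, Herc6 and Trim25), 4 nucleic acid sensors (Ddx58, Ifih1, Dhx58 and Zbp1), 3 IFIT genes, 5 OAS genes, 7 antiviral effectors and others, 7 GTPases of the GBP and IRG families, and 4 PARP, TRIM and nuclear body genes.

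The libraries came from OT-I CD8+ T cells, which carry a transgenic receptor for the SIINFEKL peptide of ovalbumin, are deficient in Rag1 or Rag2, and were transferred as naive cells into C57BL/6J mice. Recipients were given the peptide with rat IgG (Ag, n = 5) or the peptide with agonist antibodies against OX40 (CD134) and 4-1BB (CD137), which are costimulatory receptors of the TNF receptor family (Ag+Costim, n = 5). The labels place both groups at day 4, the study's methods give a slightly shorter time, and the donor cells were sorted from spleen and lymph node by CD8, their congenic marker and both receptor chains. The mice were of both sexes and of a range of ages, which are not given per library, and the 5 Naive samples of the labels were not analysed here. Poly(A) RNA was amplified with a kit that does not keep strand. The replicates were taken as separate samples because the labels number them, and the p-values measure the spread between these samples only.

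Type I interferons bind IFNAR1 and IFNAR2 and activate the kinases JAK1 and TYK2, which phosphorylate STAT proteins. STAT2 and IRF9 are part of the complex that then binds the interferon-stimulated response element in ISG promoters. Interferon gamma, the type II interferon that activated CD8+ T cells secrete, acts at promoters through the gamma-activated site, and many GBP and IRG genes respond to it. In T cells, interferons can act as a further signal during priming, and the products of ISGs sense viral nucleic acid, block translation or replication, and feed back on the receptor.

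The promoters are shown first because the response element is the site that the complex with STAT2 and IRF9 binds. The 250 bases before the start were found in RefSeq (build GRCm38.p6) for 26 of the 36 genes. The core of the response element was searched as GAAA, 2 free bases and GAAA, on both strands, and the gamma-activated site as TTC, 3 free bases and GAA, a sequence that reads the same on either strand. The core was present in 13 of 26 genes (50%), against 3.46% of 27025 gene symbols with such a window. The gamma-activated site was present in 5 of 26 (19.2%), against 8.13% of the symbols. One gene is shown for each role with a core, the one of the highest level per kilobase among the members of that role that hold a core, each running 5′ to 3′ toward the start of the gene with the core in capitals.
Isg15 (chr4:156200819-156201068, minus strand): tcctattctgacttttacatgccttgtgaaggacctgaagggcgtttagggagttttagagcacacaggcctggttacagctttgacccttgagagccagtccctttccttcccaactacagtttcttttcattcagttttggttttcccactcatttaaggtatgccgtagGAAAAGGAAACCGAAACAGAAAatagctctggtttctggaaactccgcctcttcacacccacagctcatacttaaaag
Ifit3 (chr19:34583279-34583528, plus strand): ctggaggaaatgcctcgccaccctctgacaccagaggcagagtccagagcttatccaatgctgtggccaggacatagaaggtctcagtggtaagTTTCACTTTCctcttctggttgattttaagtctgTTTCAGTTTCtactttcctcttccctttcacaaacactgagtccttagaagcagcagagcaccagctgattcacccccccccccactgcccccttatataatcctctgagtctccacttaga
Oas1a (chr5:120907526-120907775, minus strand): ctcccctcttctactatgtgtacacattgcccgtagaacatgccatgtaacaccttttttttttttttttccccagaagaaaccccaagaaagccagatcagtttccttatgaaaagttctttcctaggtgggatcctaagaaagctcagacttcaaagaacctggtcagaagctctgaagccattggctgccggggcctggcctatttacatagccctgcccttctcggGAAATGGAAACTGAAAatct
Bst2 (chr8:71537473-71537722, minus strand): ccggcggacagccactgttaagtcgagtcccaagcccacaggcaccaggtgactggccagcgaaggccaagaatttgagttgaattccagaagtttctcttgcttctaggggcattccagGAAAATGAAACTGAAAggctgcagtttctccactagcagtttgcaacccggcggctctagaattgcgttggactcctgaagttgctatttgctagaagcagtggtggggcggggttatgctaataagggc
Igtp (chr11:58199306-58199555, plus strand): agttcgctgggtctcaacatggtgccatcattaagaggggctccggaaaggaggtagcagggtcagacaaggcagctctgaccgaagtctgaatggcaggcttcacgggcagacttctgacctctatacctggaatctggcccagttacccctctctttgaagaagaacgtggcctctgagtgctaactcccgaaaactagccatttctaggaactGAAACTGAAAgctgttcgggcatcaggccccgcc
Trim30a (chr7:104465194-104465443, minus strand): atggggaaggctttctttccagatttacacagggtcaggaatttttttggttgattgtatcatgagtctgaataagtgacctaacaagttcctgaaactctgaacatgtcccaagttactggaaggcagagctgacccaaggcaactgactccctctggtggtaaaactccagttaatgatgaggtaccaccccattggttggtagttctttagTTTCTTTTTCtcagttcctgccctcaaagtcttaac
In Isg15, 3 matches began 78, 72 and 66 bases before the start and overlapped into 1 run. Overlapping pairs stood 20 and 14 bases before the start of Oas1a and 130 and 124 bases before that of Bst2, and in Bst2 a gamma-activated site at 136 bases ran into the first of the pair. Ifit3 held 2 separate copies, at 156 and 122 bases, which read on the other strand as TTTC, 2 free bases and TTTC, as did the copy at 36 bases of Trim30a. The single match of Igtp lay 34 bases before the start, with a gamma-activated site at 45 bases. The other members with a core were Ifit1 (104 and 85 bases), Oas3 (75), Rsad2 (120), Gbp2 (59), Gbp3 (45 and 39), Gbp7 (53) and Irgm1 (30 and 24). Ifit2, Oas1a and Gbp7 also held a gamma-activated site, Gbp7 in 2 copies. A match is a description of the letters in the window, and a gene without one may carry the element elsewhere.

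**Figure D1:**
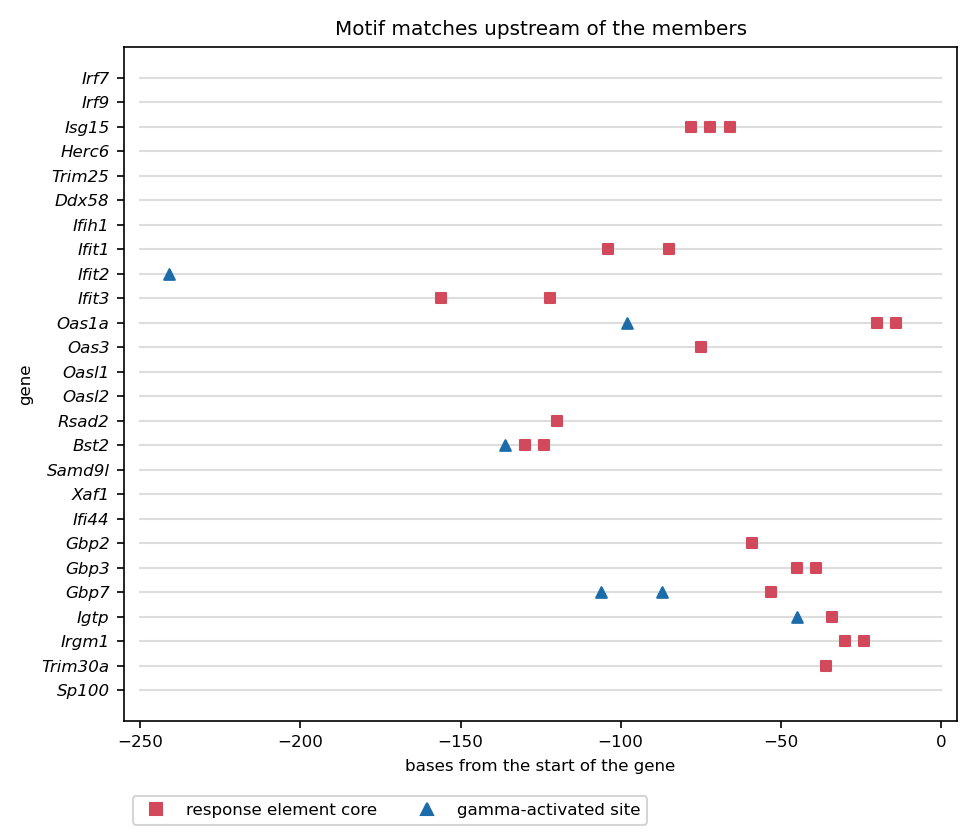
Positions of the response element core (red squares) and the gamma-activated site (blue triangles) in the 250 bases before the start of 26 members; the horizontal axis is the distance of the first base of a match from the start, in bases, and each line is a gene. The cores of 13 members lie between 14 and 156 bases before the start.

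The transcripts were present at unlike levels. Per kilobase of exon and averaged over the group means, Sp100, a nuclear body protein, stood highest at 87.8 CPM (counts scaled to library size) per kilobase, followed by Bst2 (tetherin, which holds budding virus at the cell surface) at 78.8 and Igtp (Irgm3, an immunity-related GTPase) at 58.5. Trim30a followed at 23.8, Gbp2 at 22.5 and Parp9 at 21.3. The lowest were Ifi44 at 0.107, Oas2 at 0.352 and Iigp1 at 0.448 CPM per kilobase. Of the 36 genes, 30 averaged at least 10 CPM. The exons of 14 members share bases with another annotated gene, so their counts are less certain: besides those named below, Usp18, Herc6, Dhx58, Rtp4, Gbp2, Gbp7, Igtp, Parp14 and Sp100, in most cases with a predicted or noncoding gene and for Igtp with Irgm2. Levels below are CPM with TMM scaling, and a fold change is the log2 of Ag+Costim over Ag.

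None of the ISGs passed the test for a change with costimulation. In edgeR's quasi-likelihood test, with p-values adjusted by Benjamini-Hochberg (BH) over the whole table, 0 of the 36 were called, and the lowest adjusted p was 0.191, for Oas3. The share called was 0% over all genes in the same fit. At an unadjusted p under 0.05, 5 of the 36 were higher in Ag+Costim (Oas3, Trim25, Ifit2, Gbp3 and Gbp7) against 7.89% of all genes, and 0 were lower against 10.7%. All 5 were among the 30 members averaging at least 10 CPM, and of the 8626 genes at that level 20.2% were higher and 2.82% lower by the same rule. Trim25 was the only member whose 5 Ag+Costim libraries all lay above the 5 Ag libraries, an ordering found in 4.48% of all genes and 11.3% of those at that level, and no member had the opposite order, found in 1.13% and 0.22%. The median log2 fold change of the 36 was -0.00, with 18 positive and 18 negative, against -0.32 over all genes tested and 0.24 over the 8626 better expressed genes. For the 30 members at that level the median was 0.072, and 27 of them lay within 0.5 of zero (90%), against 73.8% of those genes, and 31 of the 36 95% confidence intervals held zero.

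The zero of this scale depended on the scaling. For genes averaging at least 10 CPM the median was 0.24 under TMM, but 0.12 under size factors of DESeq2, 0.02 under upper quartiles and 0.00 under total counts. The members' median moved with it, from -0.00 to -0.18, -0.29 and -0.37. The gap between the members and those genes was -0.24 under TMM, -0.29 under size factors of DESeq2, -0.31 under upper quartiles and -0.37 under total counts. Among the 30 members at that level, 22 lay below the median of such genes under each of the 4 scalings.

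The other tools gave other calls. DESeq2 called 1 member higher, Oas3 (log2 fold change 0.62, adjusted p = 0.0459), and 0 lower, against 2.58% and 19.8% of the 36101 genes it tested, which include genes under the filter on low counts. At 10 CPM or more it called 9.84% of genes higher and 3.1% lower. With limma voom and a weight for each library, 4 members were called higher (Ifit2, Oas3, Bst2 and Gbp3) against 25.7% of all genes, and 9 lower (Irf9, Ifit1, Ifit3, Oas2, Oasl1, Oasl2, Rsad2, Gbp2 and Parp14) against 26.3%. Of the 30 members at 10 CPM or more, 4 were called higher and 5 lower by limma voom, against 57.6% and 12.5% of genes at that level. That fit gave Ag replicates 2 and 5 weights of 0.0986 and 0.0656 and Ag replicates 1 and 4 weights of 1.42 and 2.00, so its Ag mean rested mainly on the latter libraries.

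**Figure D2:**
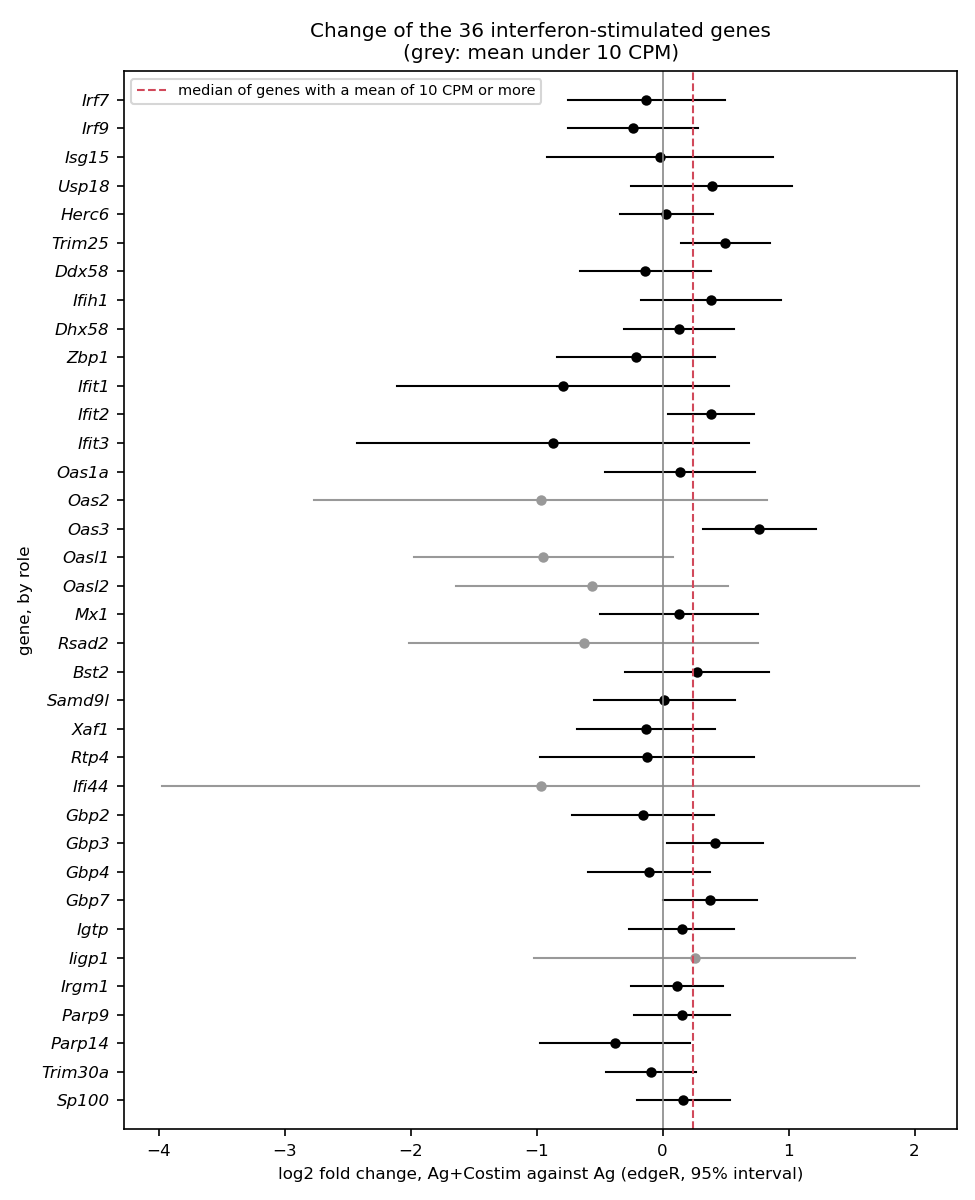
Log2 fold change of each of the 36 genes, Ag+Costim against Ag (horizontal axis, edgeR), with bars for the 95% confidence interval, 5 libraries per group, and grey for genes averaging under 10 CPM. The dashed line is the median of all genes above that level, 0.24, and 31 of the 36 intervals hold zero.

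Library totals ranged from 59598556 to 449401065 estimated counts in Ag and from 332290834 to 639070261 in Ag+Costim, and the counts are derived from coverage, so a total is not a number of reads. The 7 CD8 T cell markers were present in every library, summing to 2948 to 5819 CPM in Ag and 3848 to 4733 CPM in Ag+Costim. The Ag libraries were unlike each other. Genes with a count numbered 48058, 51778 and 40441 in Ag replicates 1, 3 and 4, against 21779 and 20714 in Ag replicates 2 and 5. In Ag+Costim they numbered 28727 to 30340. The TMM factors of Ag replicates 1, 3 and 4 were 1.40, 1.21 and 1.25, against 0.907 and 0.826 in Ag replicates 2 and 5 and 0.888 to 0.930 in Ag+Costim. In Ag replicates 1 and 4 the mean level of 25 cell cycle genes was 5.68 and 5.76 on the log2(CPM + 0.5) scale, against 7.91 to 8.71 in the other 3 Ag libraries and 8.63 to 8.89 in Ag+Costim. Over all genes tested, 96.2% had a larger SD in Ag than in Ag+Costim, whereas 23 of the 36 members did (63.9%).

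Stat2, a signal transducer upstream of the list that belongs to the type I complex, was at 56.4, 22.2, 31.4, 63.8 and 35.4 CPM in Ag replicates 1 to 5. It was at 37.5, 39.6, 43.8, 26.1 and 36.9 CPM in Ag+Costim replicates 1 to 5. The Ag values of Stat2 spanned those of Ag+Costim on both sides, with a log2 fold change of -0.19 (SE 0.28, edgeR adjusted p = 0.676).

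Irf9, the DNA-binding subunit of that complex, stood at 157, 92.2, 76.8, 160 and 119 CPM in Ag and at 93.9, 116, 134, 88.5 and 80.8 CPM in Ag+Costim. The 2 highest of the 10 values were Ag replicates 1 and 4, Ag replicates 2 and 5 lay among the Ag+Costim libraries, and Ag replicate 3 was the lowest of all 10 (log2 fold change -0.24, SE 0.23, edgeR adjusted p = 0.526). Irf9 shares exon bases with Rnf31 on the same strand, so part of its count may belong to that gene. For Irf7, the factor that amplifies type I interferon production, Ag gave 103, 65.8, 47.1, 97.1 and 67.9 CPM and Ag+Costim gave 52.0, 80.3, 111, 47.9 and 57.5 CPM. Its highest value was Ag+Costim replicate 3 and its lowest Ag replicate 3, and the groups covered the same range (log2 fold change -0.13, SE 0.28, edgeR adjusted p = 0.783). Phrf1 lies antisense to Irf7, and without strand the reads from the exon bases they share cannot be told apart.

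Isg15, a ubiquitin-like protein that is joined to other proteins, was among the ISGs that varied most between libraries of 1 group. It was at 20.02, 10.5, 7.72, 19.0 and 7.03 CPM in Ag and at 8.02, 13.2, 24.9, 8.43 and 8.91 CPM in Ag+Costim. The means were 12.8 ± 6.21 and 12.7 ± 7.13 CPM (SD, n = 5), and the log2 fold change of -0.02 had a 95% interval from -0.91 to 0.88, which does not set apart no change and a change of nearly 2-fold either way. Usp18, the protease that removes Isg15 and also restrains IFNAR2 signalling, was at 29.9, 35.4, 36.1, 24.3 and 50.2 CPM in Ag and at 46.9, 70.7, 54.0, 23.1 and 35.7 CPM in Ag+Costim. Replicates 2 and 3 of Ag+Costim exceeded every Ag library and replicate 4 was the lowest of all 10 (log2 fold change 0.39, SE 0.29, edgeR adjusted p = 0.41). Herc6, the mouse ligase for Isg15, ranged from 36.6 to 54.7 CPM in Ag and from 37.2 to 60.7 CPM in Ag+Costim (log2 fold change 0.03).

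Trim25, a ubiquitin ligase that acts on the RNA sensor RIG-I, was the member with separate groups. Its Ag libraries were at 66.9, 45.8, 51.1, 71.0 and 49.9 CPM and its Ag+Costim libraries at 71.7, 84.8, 95.7, 71.5 and 77.9 CPM. The highest Ag value and the lowest Ag+Costim value, both in replicates numbered 4, were nearly equal. The means were 56.9 ± 11.2 and 80.3 ± 10.2 CPM (SD, n = 5), a log2 fold change of 0.50 (SE 0.16, 95% interval 0.14 to 0.85, edgeR adjusted p = 0.228). With DESeq2 size factors, total counts or upper quartiles the groups of Trim25 overlapped.

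The sensors showed the same overlap. Ddx58 (RIG-I), which detects viral RNA ends, ranged from 51.0 to 99.7 CPM in Ag and from 46.7 to 91.6 CPM in Ag+Costim. Ifih1 (MDA5), the sensor of long double-stranded RNA, was at 25.9, 12.4, 20.7, 31.0 and 13.95 CPM in Ag and at 22.8, 25.3, 33.8, 27.7 and 25.8 CPM in Ag+Costim. All 5 Ag+Costim libraries exceeded Ag replicates 2, 3 and 5 but not replicates 1 and 4, with a log2 fold change of 0.38 (SE 0.25, edgeR adjusted p = 0.36). Dhx58 (LGP2), which tunes both sensors, and Zbp1, a sensor of Z-form nucleic acid, had log2 fold changes of 0.13 and -0.21. The median over the 4 sensors was -0.00.

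The IFIT family, whose proteins bind viral RNA and block its translation, held the 2 genes whose levels ranged over the largest fold within Ag among the 30 members averaging at least 10 CPM. Ifit3 was at 46.7, 13.3, 9.85, 45.5 and 4.71 CPM in Ag and at 7.98, 13.6, 32.6, 4.02 and 7.51 CPM in Ag+Costim. Ifit1 was at 46.7, 12.9, 11.4, 47.2 and 7.44 CPM in Ag and at 7.76, 17.0, 30.9, 8.01 and 9.11 CPM in Ag+Costim. For both genes Ag replicates 1 and 4 stood above every other library, Ag+Costim replicate 3 came next, and the other 3 Ag libraries lay within the Ag+Costim range or near it. The log2 fold changes were -0.87 (SE 0.71, 95% interval -2.43 to 0.69, edgeR adjusted p = 0.446) for Ifit3 and -0.79 (SE 0.60, edgeR adjusted p = 0.416) for Ifit1. By the exact permutation test over the 252 assignments of libraries to groups, unadjusted, p was 0.27 for Ifit3 and 0.317 for Ifit1. Without Ag replicates 1 and 4, an alternative chosen after the data were seen, both signs turned, to 0.52 for Ifit3 and 0.47 for Ifit1. Single libraries also moved these values: Ifit3 ranged from -1.50 without Ag+Costim replicate 3 to -0.48 without Ag replicate 1, and Ifit1 from -1.23 without Ag+Costim replicate 3 to -0.42 without Ag replicate 4.

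Ifit2 did not share that pattern. It was at 14.3, 14.8, 20.2, 17.4 and 19.4 CPM in Ag, where replicates 1 and 4 were not the highest, and at 17.2, 25.5, 24.6, 22.3 and 22.7 CPM in Ag+Costim. Its log2 fold change was 0.38 (SE 0.16, edgeR adjusted p = 0.26). In its promoter window no core was found, and Ifit1 and Ifit3 each held 2. Irf7 and Ddx58, highest of Ag in replicates 1 and 4, had no core in their windows. Bst2, Gbp3 and Oas1a, lowest of Ag in these replicates, held a core. These genes were chosen as examples, and the members with and without a core were not compared as sets. Whether the core bears on the pattern was not tested.

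The OAS genes, a family that includes the enzymes making the oligoadenylates that activate RNase L, were split by level. Oas3, the largest enzyme of the family, had the largest positive change of the 36. It was at 48.8, 30.9, 53.7, 46.2 and 38.6 CPM in Ag and at 53.3, 75.7, 103, 66.7 and 72.7 CPM in Ag+Costim. Only Ag replicate 3 and Ag+Costim replicate 1 crossed, and by less than 1 CPM. The means were 43.6 ± 8.97 and 74.2 ± 18.1 CPM (SD, n = 5), with a log2 fold change of 0.77 (SE 0.20, 95% interval 0.32 to 1.21, edgeR adjusted p = 0.191, exact permutation p = 0.0159 unadjusted). Oas1a ranged from 16.8 to 39.5 CPM in Ag and from 16.8 to 40.0 CPM in Ag+Costim. Oas2, Oasl1 and Oasl2 were low, at 0.199 to 4.69, 1.29 to 6.18 and 1.62 to 10.03 CPM in Ag and at 0.547 to 1.59, 0.828 to 3.20 and 2.32 to 8.12 CPM in Ag+Costim. In these 3 genes the highest Ag library was replicate 1, and their log2 fold changes were -0.97, -0.95 and -0.56 (edgeR adjusted p = 0.461, 0.282 and 0.479). Gm13822 lies antisense to Oasl1, and the reads from the exon bases they share cannot be told apart.

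Among the antiviral effectors, Bst2 was at 44.96, 73.6, 49.9, 43.5 and 110 CPM in Ag and at 68.9, 88.5, 90.2, 71.8 and 70.01 CPM in Ag+Costim. Unlike Ifit1 and Ifit3, it was highest in Ag replicates 2 and 5 and lowest in Ag replicates 1 and 4 (log2 fold change 0.27, SE 0.26, edgeR adjusted p = 0.509). Without Ag replicates 1 and 4 its log2 fold change was 0.01. Rsad2 (viperin), which makes a chain-terminating nucleotide, ranged from 1.54 to 10.5 CPM in Ag and from 1.27 to 7.87 CPM in Ag+Costim. Mx1, a dynamin-like GTPase that C57BL/6 mice carry in a truncated form, ranged from 8.11 to 11.6 CPM in Ag, the narrowest range of the 7, and from 6.83 to 17.9 CPM in Ag+Costim. Samd9l, Xaf1 and Rtp4 had log2 fold changes of 0.01, -0.13 and -0.13. Ifi44 had no count in Ag replicate 5 and 3.20 CPM in Ag replicate 3, and lay under 1 CPM in the other 8 libraries.

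The GTPases of the GBP and IRG families attack the membranes around intracellular microbes, and their median log2 fold change was 0.15, with 5 of 7 positive. Gbp3 was at 34.2, 55.8, 50.9, 45.9 and 62.4 CPM in Ag and at 66.3, 80.1, 68.6, 58.0 and 59.6 CPM in Ag+Costim. Ag replicate 5 lay above the lowest 2 Ag+Costim libraries, and the log2 fold change was 0.42 (SE 0.17, edgeR adjusted p = 0.263, exact permutation p = 0.0317 unadjusted). Gbp7 ranged from 70.4 to 108 CPM in Ag and from 98.8 to 135 CPM in Ag+Costim (log2 fold change 0.38, edgeR adjusted p = 0.269). Gbp2 and Gbp4 went the other way on average, at -0.16 and -0.11, with Ag replicate 4 the highest library of both. Gbp4 shares exon bases with Gbp8 and Gbp9, and reads may have been split among them. Igtp was at 103, 129, 78.3, 112 and 139 CPM in Ag and at 110, 142, 159, 111 and 101 CPM in Ag+Costim (log2 fold change 0.15, SE 0.19, edgeR adjusted p = 0.622, and -0.10 and -0.08 with total counts and upper quartiles). Irgm1, which regulates the other IRG proteins, had a log2 fold change of 0.11, and Iigp1, at 0.388 to 4.21 CPM in Ag, of 0.25.

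In the last group, Parp14 and Parp9 are ADP-ribosylation proteins and Trim30a is a TRIM protein that restrains innate signalling. Parp14 was at 48.8, 43.3, 26.4, 59.6 and 21.3 CPM in Ag and at 32.3, 33.0, 37.3, 25.3 and 25.7 CPM in Ag+Costim, so that 3 Ag values were above and 1 below the whole range of Ag+Costim (log2 fold change -0.38, SE 0.27, edgeR adjusted p = 0.395). Sp100 was at 632, 633, 461, 687 and 717 CPM in Ag and at 740, 788, 745, 559 and 673 CPM in Ag+Costim. Its largest value was 788 CPM and its smallest 461 CPM, a narrow range beside that of Isg15 or the IFIT genes (log2 fold change 0.16, SE 0.17, edgeR adjusted p = 0.542, and -0.11 and -0.08 with total counts and upper quartiles). Parp9, which shares exon bases with Dtx3l on the other strand, and Trim30a had log2 fold changes of 0.15 and -0.09.

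**Figure D3:**
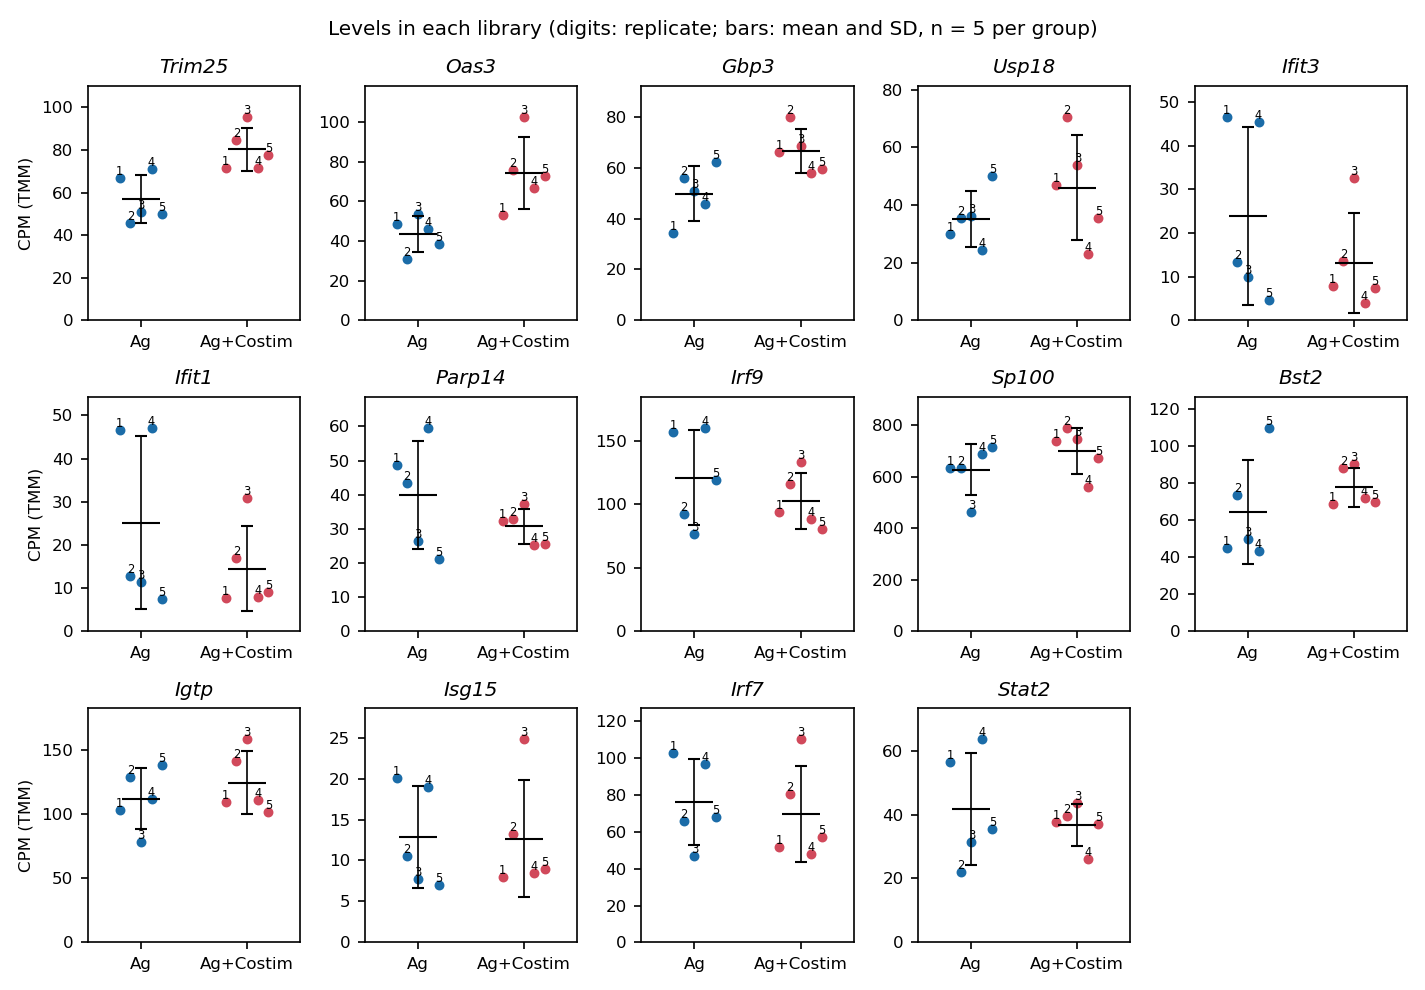
Level in CPM (vertical axis, TMM scaling) of 13 members and of Stat2 in each library, by group, with digits for the replicate and bars for the mean and SD of 5 libraries. Trim25 is the gene whose groups do not overlap, and in Ifit1, Ifit3, Stat2, Irf9 and Parp14 Ag replicates 1 and 4 are the 2 highest of all libraries.

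Under TMM scaling, the mean level of the ISGs differed more between libraries of 1 group than between the groups. The mean of the 36 genes on the log2(CPM + 0.5) scale was 5.30, 4.78, 4.81, 5.35 and 4.71 in Ag and 4.79, 5.23, 5.52, 4.60 and 4.78 in Ag+Costim. The group means were 4.99 ± 0.31 and 4.98 ± 0.38 (SD, n = 5). The distance between the groups depended on the scaling, with a members' median log2 fold change of -0.00 under TMM and -0.37 under total counts. Within Ag, 21 of 36 genes ranged over more than 2-fold, and within Ag+Costim 15 did. The share of all genes with such a range is not given, so these counts cannot be read as many or few. In Ag+Costim the order of the libraries was shared by most of the list. Replicate 3 was the highest library in 28 of 36 genes (77.8%), against 25.8% of genes at 10 CPM or more, and replicate 2 was the highest in the other 8. Replicates 2 and 3 were the 2 highest in 32 of 36 (88.9%), against 14.9% of those genes. Replicate 4 was the lowest in 20 of 36 (55.6%), against 25.5% of those genes. Replicate 3 was the highest in the same number of genes, 28, under all 4 scalings.

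In Ag, replicates 1 and 4 were the 2 highest libraries in 21 of 36 genes (58.3%), against 19.1% of genes at 10 CPM or more. The pair that led most often over those genes, replicates 2 and 5, led in 5 of 36 members (13.9%) against 53.8%. With the other scalings the count of 21 became 25, 28 and 26, against 25.3%, 38.7% and 27.6% of genes. Ag replicates 1 and 4 were also the libraries with the low cell cycle level, whereas Ag+Costim replicate 3 had a cell cycle level of 8.65, within the range of its group. Over the 10 libraries, 26 of 36 members had a Pearson correlation above 0.5 with the mean of the other members, highest for Isg15 (r = 0.94), Ddx58 (0.92), Trim30a (0.92), Irf7 (0.90) and Gbp2 (0.90). Bst2 (-0.26), Gbp3 (-0.18) and Oas1a (-0.06) were the 3 below zero. These points share their library's scaling factor, and the correlations are given as a description.

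**Figure D4:**
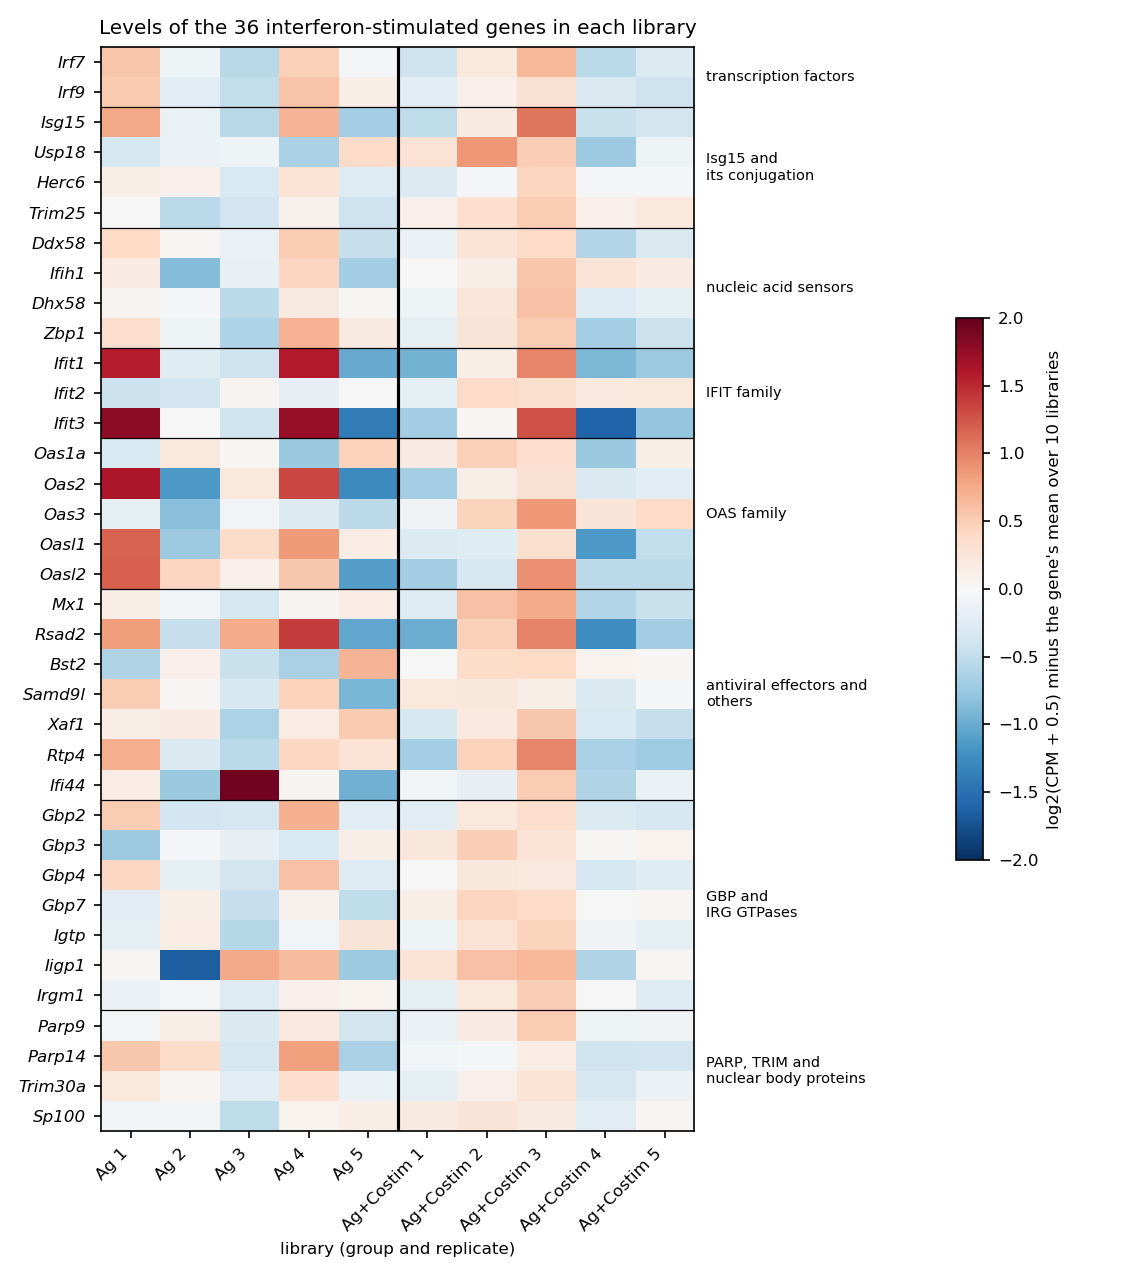
Level of each of the 36 genes (rows, by role) in each library (columns), as log2(CPM + 0.5) minus the gene's mean over the 10 libraries, red above and blue below that mean. Ag+Costim replicate 3 is the highest of its group in 28 of 36 genes, and Ag replicates 1 and 4 are the 2 highest of theirs in 21.

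**Figure D5:**
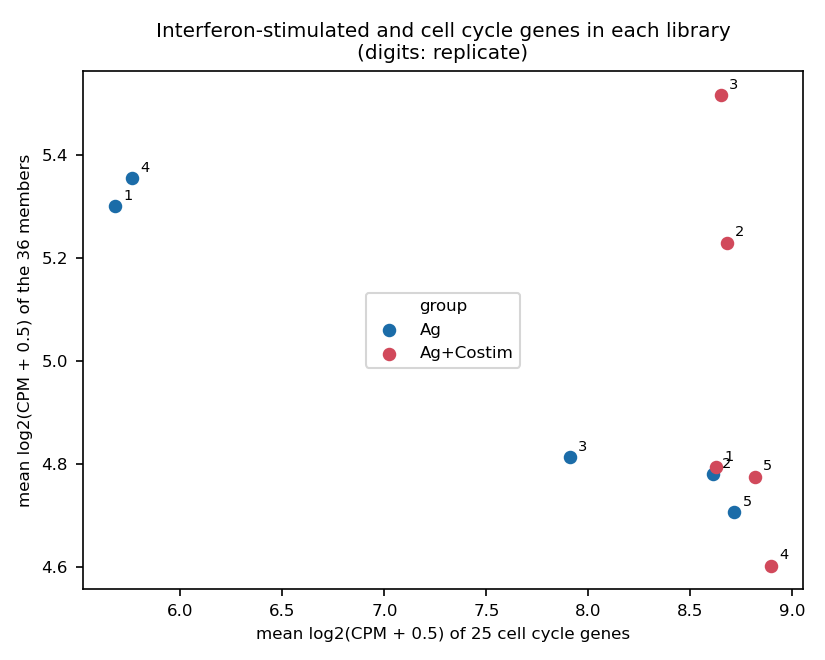
Mean level of the 36 genes (vertical axis) against the mean level of 25 cell cycle genes (horizontal axis), both on the log2(CPM + 0.5) scale, 1 point per library with its replicate number. Ag replicates 1 and 4 stand apart at cell cycle levels of 5.68 and 5.76, and Ag+Costim replicates 2 and 3 have ISG levels of 5.23 and 5.52 at cell cycle levels like those of their group.

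Markers of other cells were unevenly spread over these libraries. The 6 markers of plasmacytoid dendritic cells summed to 98.5 and 87.1 CPM in Ag replicates 1 and 4, to 14.98 to 98.5 CPM over Ag and to 6.95 to 15.7 CPM in Ag+Costim. Most of this was Pacsin1 and Ccr9, so the sum alone does not show that such cells were present. Of the 6 markers, 1 was under 1 CPM in every Ag library and 3 in every Ag+Costim library. The 8 myeloid markers, none of them under 1 CPM throughout a group, were lowest of Ag in replicates 1 and 4, with sums of 52.4 and 66.3 CPM against 75.4 to 155 CPM in the other 3, and summed to 84.3 to 183 CPM in Ag+Costim, highest in replicate 3. B cell markers, 6 genes of which Ighm gave most, summed to 643 to 1179 CPM in Ag, highest in replicate 4, and to 515 to 764 CPM in Ag+Costim, highest in replicate 3. Erythroid markers summed to 14.7 to 1103 CPM in Ag, highest in replicate 3, and to 3.80 to 39.8 CPM in Ag+Costim, and NK cell markers to 2.92 to 23.7 and 0.552 to 2.40 CPM. The part of other cells, of library diversity or of the cell cycle state in the ISG levels was not tested, and in bulk RNA fewer cells with a transcript and less of it per cell cannot be told apart.

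Ag replicates 1 and 4 were left out in an alternative chosen after the data were seen. Since they were the 2 highest Ag libraries in 21 of the 36 members, higher fold changes for those genes follow from the choice and are no support for a change. The members' median became 0.22, against 0.15 for genes at 10 CPM or more, 31 of 36 were positive, and the lowest edgeR adjusted p was 0.0865. All 5 Ag+Costim libraries then lay above the 3 Ag libraries in Trim25 (log2 fold change 0.73), Ifih1 (0.81) and Oas3 (0.87), an ordering found in 6.92% of all genes, and below them in 0 members, against 2.53%. These members average over 10 CPM, and the share for genes at that level is not given for this alternative. With all libraries the share was larger at that level, 11.3% against 4.48%.

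The other genes of the pathway, taken as lists, gave few calls in edgeR. Of 14 genes for interferon receptors, JAK kinases, STATs and IRFs, 0 passed the edgeR test after adjustment. At an unadjusted p under 0.05, 0 were higher and 1 was lower, against 7.89% and 10.7% of all genes. At 10 CPM or more, the level that 13 of the 14 reached, the shares were 20.2% and 2.82%. The lower gene was Ifngr2, the signalling chain of the interferon gamma receptor, named here after its values were seen. It was at 8.64, 3.94, 8.44, 4.90 and 3.36 CPM in Ag and at 1.74, 1.23, 2.21, 1.09 and 1.77 CPM in Ag+Costim, with no overlap (log2 fold change -1.86, SE 0.35, edgeR adjusted p = 0.134, DESeq2 adjusted p = 1.03e-05). Such an order, with every Ag+Costim library lower, was found in 1.13% of all genes. Limma voom called 3 of the 14 higher and 3 lower, against 25.7% and 26.3% of all genes. At 10 CPM or more it called 57.6% of genes higher and 12.5% lower. Of the 5 negative regulators of JAK-STAT signalling, 0 passed in edgeR in either direction, also at an unadjusted p under 0.05, and 0 in DESeq2. For these 5, limma voom called 3 higher and 1 lower, to be read beside the same shares of its calls over all genes. Of 9 adaptors and kinases that link sensors to interferon genes, Tbk1 was higher and Tlr7, an endosomal RNA sensor, lower at an unadjusted p under 0.05 (log2 fold change -1.65 for Tlr7, edgeR adjusted p = 0.239). Tbk1, the kinase that activates IRF3, also named after its values were seen, had means of 72.0 ± 11.9 and 97.1 ± 3.54 CPM without overlap (log2 fold change 0.43, SE 0.14, edgeR adjusted p = 0.227, DESeq2 adjusted p = 0.0152). Such an order, with every Ag+Costim library higher, was found in 11.3% of genes at 10 CPM or more. Of 19 interferon genes only Ifng had the counts to be tested, at 4.09 to 11.01 CPM in Ag and 4.56 to 6.67 CPM in Ag+Costim (log2 fold change -0.34, SE 0.29, edgeR adjusted p = 0.469).

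A further 59 ISGs outside the 36 had a median log2 fold change of -0.18, with 21 positive and 38 negative. The median was -0.32 over all genes tested and 0.24 over genes at 10 CPM or more, the level that 45 of the 59 reached. At an unadjusted p under 0.05, 4 were higher and 5 lower in edgeR, and 0 passed after adjustment. The shares were 7.89% and 10.7% of all genes, and 20.2% and 2.82% of those at 10 CPM or more. DESeq2 called 3 higher and 3 lower, against 2.58% and 19.8% of the genes it tested and 9.84% and 3.1% of those at 10 CPM or more. Limma voom called 11 higher and 26 lower, against 25.7% and 26.3% of all genes and 57.6% and 12.5% at that level. The 3 largest positive changes at 10 CPM or more over all these pathway lists were those of Irf8, a transcription factor of the IRF family (0.67, edgeR adjusted p = 0.282), Cmpk2, a mitochondrial nucleotide kinase next to Rsad2 (0.65), and Eif2ak2 (PKR), the kinase that halts translation on double-stranded RNA (0.64). Eif2ak2 had means of 19.5 ± 1.61 and 30.3 ± 3.32 CPM (SD, n = 5) and Cmpk2 of 35.5 ± 6.35 and 55.8 ± 10.1 CPM, neither with overlap (edgeR adjusted p = 0.134 and 0.177). Of the 59, 3 had every Ag+Costim library above every Ag library and 0 had the opposite order. These orders were found in 4.48% and 1.13% of all genes, and in 11.3% and 0.22% of those at 10 CPM or more. At the same level, the 3 largest negative changes were those of Ifi213, a gene of the Ifi200 family (-1.38), Gbp8 (-1.02) and Ifit1bl1, an Ifit1-like gene (-0.97), with edgeR adjusted p of 0.26, 0.268 and 0.285. In all 3 the Ag mean rested on replicates 1 and 4, as for Ifi213, at 129.5 and 123 CPM there and at 27.3 to 30.02 CPM in the other 3 Ag libraries.

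The use of transcripts within the members did not change past the test. Of the 24 members with 2 or more transcripts above the count minimum, edgeR's diffSpliceDGE called 0 at an adjusted p under 0.05 and a change in share over 0.1, against 0.22% of all genes tested. The lowest p was that of Irgm1 (adjusted p = 0.286). In Rtp4, a protein of receptor transport that also limits virus replication, the transcript that starts at 23609057 on chromosome 16 held 3.41 ± 6.45% of the counts of the Ag libraries and 26.1 ± 23.1% of those with costimulation (mean ± SD, n = 5, adjusted p = 0.803). In Ag+Costim replicate 3 it held 63.5% and in replicate 4 it held 0%. Sp100-202, the leading Sp100 transcript, held 37.9 ± 2.98% and 39.2 ± 1.89%. Mx1-205, annotated as a target of nonsense-mediated decay, held 51.1 ± 32.1% and 50.6 ± 29.6% of the Mx1 counts, and its share in single libraries ran from 0 to 87.8%.

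The percent spliced in (PSI) of splicing and end events was deposited once per group, with libraries combined, so it carries no replicate error and no test. Of 286 events in 26 members whose higher group reached 10 CPM, 10 events in 6 members differed by more than 0.1 (3.50%), against 3.27% of the events of all genes at that level. The largest pair was in tandem starts of Igtp on the plus strand of chromosome 11, next to the promoter shown above. The 30-base segment from 58199556 to 58199585, at the annotated start, had PSI values of 0.163 (Ag) and 0.422 (Ag+Costim), and the next segment, from 58199586, of 0.825 and 0.544. The tandem starts of Gbp3 differed likewise (0.857 and 0.627 for the segment from 142560145 to 142560283 on chromosome 3), as did the ends of Xaf1 (0.630 and 0.427 for the segment from 72311956 to 72312081 on chromosome 11). Ifih1, Gbp4 and Irf7 held the remaining events, with the largest difference of 0.13 in Ifih1.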

How the data were processed

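The authors aligned paired reads of poly(A) libraries to mm10 with HISAT2 2.1.0, sorted them with SAMtools 1.9 and quantified genes and transcripts with StringTie 2.1.0 (study methods and processing notes). The deposited values are estimated counts, rounded to whole numbers, for 10 libraries. Entries without a gene identifier (26345, at most 0.308% of a library) were left out. The PSI values are fractions deposited by the authors from Whippet, 1 per group with libraries combined, and the authors' difference and probability columns were not used.

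Gene counts were tested with edgeR 4.0.16 (R 4.3.3) using filterByExpr by group, TMM factors and the robust quasi-likelihood test, with BH adjustment over all 24262 genes at 0.05. DESeq2 1.42.0 and limma 3.58.1 (voom with library weights) were alternatives. The study used DESeq2. All 36 members passed the filter. Single genes also had a two-sided exact permutation test, whose smallest p is 0.0079 with 252 assignments. Transcripts needed 50 counts in 5 libraries. Mean log2 levels used a pseudocount of 0.5 CPM. Scripts were tested on simulated data.

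Genes were placed by GENCODE M21 (GRCm38), and promoters by RefSeq windows, which were not used here for Zbp1, Parp9, Mx1, Rtp4, Parp14, Dhx58, Oas2, Usp18, Gbp4 and Iigp1. The members and lists were chosen with earlier results of these data known. Values in every library were given for members without overlap, for the 4 largest changes in each direction at 10 CPM or more, for the 3 highest levels per kilobase and for Isg15, Irf7, Irf9 and Stat2. The rule for such genes held 1 more gene, which is not reported here. Ifih1 and Ifit2 were added after their values were seen, as were the alternative without Ag replicates 1 and 4 and the ranks under other scalings. Counts bear on depth only through coverage, so no counting interval was computed.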

Additional observations from a re-analysis of the deposited data

Results flagged for a closer look

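Of 72 groups of 5 libraries examined, 1 gene in each of 2 groups had a library far from the other 4, where chance flags about 1 group in 20. Oasl2 was at 8.12 CPM in Ag+Costim replicate 3 and at 2.32 to 3.14 CPM in the other 4 libraries of that group. Ifi44 was at 3.20 CPM in Ag replicate 3 and at 0 to 0.576 CPM in the other Ag libraries.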

How the results depend on the processing

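The count of genes called over the whole table was 0 with edgeR in the fit used here, under the other scalings, without a filter, with the replicate block and without any single library, but 8064 with DESeq2 and 12632 with limma voom. At an unadjusted p under 0.05 edgeR had 1915 genes higher and 2586 lower. The members' median ranged from -0.11 to 0.09 without any single library and was -0.37 with total counts and 0.26 without the filter. The number of members higher without overlap was 0 with DESeq2 size factors, total counts or upper quartiles, 4 without the filter, 3 without Ag replicates 1 and 4, and 1 to 3 without any single library, the 3 being reached without Ag replicate 5 or Ag+Costim replicate 1 and 2 without any other library but Ag replicate 1. In the fit used here this order was found in 4.48% of all genes and in 11.3% of those at 10 CPM or more. It was found in 6.92% of all genes without Ag replicates 1 and 4. The share under the other settings is not given, so those counts cannot be read as many or few. Without the filter, which changes the TMM factors, Irf9 (0.022), Isg15 (0.23), Irf7 (0.13) and Stat2 (0.087) changed sign on the log2 scale. Sp100 and Igtp changed sign with total counts (-0.11 and -0.10) and upper quartiles (-0.077 and -0.080). Without any single library, Isg15 ranged from -0.39 to 0.20, Irf7 from -0.33 to 0.0079 and Stat2 from -0.32 to 0.027. Without Ag replicates 1 and 4 the sign changed for Ifit3 (0.52), Ifit1 (0.47), Parp14 (0.032), Irf9 (0.11), Isg15 (0.60), Irf7 (0.22) and Stat2 (0.32). The cause of these changes was not tested. Limma voom passed its threshold for 8 of the 14 genes given in every library, where edgeR did not. Over all genes it called 25.7% higher and 26.3% lower. No member was called for transcript usage under any alternative run.

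Libraries of the same number in both groups did not deviate together (correlations from -0.41 to 0.21, and none correlated best with its own number), so the numbers only name them, and the fit with the replicate block gave 0 genes called and a members' median of 0.02. The fit with only the compared groups is the same fit, since no Naive column was used.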

Other observations

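Outside the interferon lists, the 10 genes whose log2 level over the 10 libraries was most like the mean of the 36 ISGs, among 8482 genes at 10 CPM or more, were Pptc7 (r = 0.948), Dgkz (0.942), Dusp7 (0.932), Phc2 (0.932), Pex6 (0.923), Gm43302 (0.923), Zfp36l2 (0.918), Mcl1 (0.918), Kremen1 (0.915) and Pip4k2a (0.905). Dgkz is a diacylglycerol kinase that damps T cell receptor signalling, Dusp7 is a phosphatase of ERK, Zfp36l2 is an RNA-binding protein that promotes decay of AU-rich transcripts, and Mcl1 is an anti-apoptotic protein of the BCL2 family. Zfp36l2 ranged from 39.9 to 126 CPM and Dgkz from 100.1 to 184 CPM over the libraries. These correlations are a description of 10 libraries that share scaling factors, and they have no test.

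In the 59 further ISGs the mean levels of the Ag+Costim libraries stood in the order of the 36, and in Ag replicates 4 and 1 were again the highest while the order of the other 3 differed. Ag+Costim replicate 3 was the highest of its group in 46 of 59 (78.0%), against 25.8% of genes at 10 CPM or more. Ag+Costim replicate 4 was the lowest in 34 (57.6%), against 25.5%, and in Ag replicate 4 was the highest in 32 (54.2%), against 24.1%. Their mean level on the log2(CPM + 0.5) scale was 5.53 in Ag+Costim replicate 3 and 4.76 to 5.23 in the other 4 libraries of that group.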
